A study of Homo sapiens with 6 samples.

Results

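The S100A calcium-binding proteins were examined here as 9 genes chosen by symbol: S100A2, S100A3, S100A4, S100A6, S100A10, S100A11, S100A13, S100A14 and S100A16. All 9 have a row among the 16781 genes of the deposited expression table. RNA came from Caco-2, a long-established human line that began as a colon adenocarcinoma, as 3 libraries of unmodified cells (WT) and 3 of cells whose CBS gene had been stably knocked out by CRISPR/Cas9 (CBS KO). CBS is an enzyme that makes hydrogen sulfide. To make CBS KO, a lentivirus brought in Cas9, a guide RNA and resistance to puromycin, and the cells were selected with that drug, while the labels give no such treatment for WT. The knockout, the infection and the selection therefore cannot be told apart. The sources used here do not say whether the knockout cells were 1 clone, nor whether replicates were grown as separate cultures, so the spread between libraries may be technical. The set of genes was put together with earlier results of this same comparison known. Its fold changes are therefore given as a description, with no test.

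S100 proteins are small proteins with a pair of EF-hands, the helix-loop-helix folds that bind calcium. Most form dimers, open a binding face when calcium enters the cell, and dock there on partner proteins such as annexins, cytoskeletal motors and chaperone cofactors. Some members leave the cell by unconventional routes and act on receptors such as AGER. Most S100A genes lie in a cluster on chromosome 1, and several are abundant in simple epithelia, the gut lining among them.

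CBS itself fell 2.22-fold in CBS KO, with a mean CPM (counts per 1000000) of 50.8 ± 2.11 for WT against 22.8 ± 3.80 (SD, n = 3). Library totals ran from 16097680 to 16176745 counts in WT and from 12805180 to 14307287 in CBS KO. CPM here carries edgeR's TMM scaling (a trimmed mean of log ratios), whose factors were 1.13 in the WT libraries and 0.86 to 0.905 in CBS KO. Over the 13028 genes that had enough counts for a test, 38.4% were called higher and 38.9% lower in CBS KO by edgeR at an adjusted p under 0.05, and 77.2% in either direction. That balance differed between settings: 4998 genes were higher and 5062 lower with TMM, 2966 and 7403 with the library total, and 1969 and 8451 by limma, with its own filter and an added 1, on TPM (transcript levels per length that sum to 1000000 in a library). Over all genes the log2 fold changes had a median of -0.01 under TMM, -0.36 when scaled by library total, -0.31 on log2(FPKM + 1) and -0.51 on log2(TPM + 1), and S100A values on each scale are read against these shifts. All 9 enterocyte and epithelial markers searched for were detected, with a summed level of 7504 to 8447 TPM in WT and 7205 to 7457 TPM in CBS KO that was mostly KRT8, KRT18 and KRT19. With TMM, 7 of them were called higher, KRT20 by 5.54-fold, and 2 lower, CDX2 by 3.83-fold. The markers of leukocytes, which are a main source of some S100 proteins in inflamed gut, summed to 61.8 to 72.9 TPM in WT and 102 to 105 TPM in CBS KO over 7 measured genes, 3 of them called higher and 1 lower. That sum was carried by CD68, CSF1R, CD14 and LYZ, while PTPRC, the defining leukocyte gene, stood at 0 TPM in WT and 0.0067 TPM in CBS KO. Markers of fibroblasts and endothelium (7 measured) summed to 82.7 to 93.5 TPM in WT and 42.7 to 49.3 TPM in CBS KO, and those of squamous epithelium (5 measured) to 15.5 to 17.5 and 41.2 to 44.6 TPM. The squamous sum was nearly all KRT10, at a mean of 15.2 TPM in WT and 42.4 TPM in CBS KO, the only one called. TP63 went from 1.07 to 0.56 TPM and was not called, and KRT5, KRT14 and DSG3 had too few counts for a test. The part of other cell types in the S100A values was not tested. In bulk RNA, fewer cells of a type and less RNA per cell cannot be told apart.

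The 9 genes lie on chromosome 1 within 1651 kb, from 151982915 to 153634361 of GRCh38, and all are read from the minus strand. S100A10 (151982915 to 151993859) and S100A11 (152032506 to 152037004) sit apart from the other 7. Those are packed between the lowest position of S100A6, 153534599, and the highest position of S100A13, 153634361. RefSeq lists 13 transcription starts for the 9 genes. At 4 of these starts, 1 each in S100A4, S100A6, S100A13 and S100A14, the letters TATAA begin between 40 and 20 bases before the start on the gene's strand. The same holds for 3.91% of the 35116 starts in the RefSeq table. Outside the set, it holds for the listed starts of S100A9, S100P and S100G but not for that of S100A1. This motif was chosen after the sequences were seen. The 30 bases from 45 to 16 before the start are shown because they set the 4 starts with TATAA (in capitals) against the starts of S100A11 and S100A16, which lack it. All are written 5′ to 3′ along the gene from RefSeq (GRCh38.p14). Which start the Caco-2 cells use was not measured.
S100A4, chr1:153545822-153545851, minus strand: gggcctggctggggTATAAataggtcagac
S100A6, chr1:153536007-153536036, minus strand: cggggcaccgaccgcTATAAggccagtcgg
S100A13, second listed start, chr1:153627521-153627550, minus strand: ctccttccccgctgctTATAAacctcagcc
S100A14, chr1:153616341-153616370, minus strand: cctcccttcccccaggTATAAgagctgagc
S100A11, chr1:152037020-152037049, minus strand: tctgagtaaggcttgggcaaggctgggccg
S100A16, first listed start, chr1:153613153-153613182, minus strand: aaggtgtgtatccctttaacaagggcccaa

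In the full windows of 300 bases (250 before and 50 after a start), searched on both strands, GGGCGG was found at 6 of the 13 starts and in 45% of all windows (65% of those of tested genes), CCAAT at 3 and in 34.6%, and ACGTG at 2 and in 21.4%. The NF-kappaB motif was found at 6 starts and in 25.6% of all windows (31% of those of tested genes). GAANNTTC and the interferon-stimulated response element were found at none of the 13, against 6.77% and 3.57% of all windows. TGANTCA, the form that AP-1 factors bind, was found at 2 starts, those of S100A2 and S100A3, and in 7.71% of all windows. These stretches are shown with the match in capitals, since they come from the members with the fewest reads.
S100A2, first listed start, chr1:153565878-153565907, minus strand: ggagtgggctgTGACTCAcaggcatgtcat
S100A3, chr1:153549465-153549494, minus strand: ggaatcaggagTGAGTCActgggctagcat

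S100A10 and S100A11 are the annexin-bound members. S100A10, which has lost calcium binding and forms a tetramer with annexin A2 at the inner face of the plasma membrane, was the most abundant of the 9 transcripts in every library. Its level was 3607, 3456.5 and 3528 TPM in the WT libraries and 3545, 3595.5 and 3309 TPM in the CBS KO libraries. The groups overlapped on that scale, with CBS KO replicate 3 lowest of all. On the TMM-scaled CPM scale S100A10 stood at 707 ± 15.4 in WT and 1046.5 ± 69.2 in CBS KO (SD, n = 3), without overlap. Its log2 fold change was 0.56 (SE 0.07) with TMM, 0.21 with the library total and -0.02 on log2(TPM + 1), so its direction turned with the scale, while it lay 0.576 to 0.495 above the median of all genes on the first and the last of these.

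S100A11, a partner of annexin A1 that is known from membrane repair and keratinocyte growth control, had 333, 361 and 345 TPM in WT and 297, 297 and 299 TPM in CBS KO. All 3 CBS KO libraries lay below the WT libraries in TPM. In TMM-scaled CPM the order was the reverse, with 47.2, 51.2 and 49.4 in WT and 56.7, 62.8 and 71.5 in CBS KO. The log2 fold change of S100A11 was 0.37 (SE 0.08) with TMM, 0.01 with the library total, 0.01 on log2(FPKM + 1) and -0.22 on log2(TPM + 1), the lowest of the members tested on each scale. Its direction did not hold over these scales, while it lay 0.381, 0.379, 0.322 and 0.299 above the median of all genes on them, in that order.

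S100A6, also called calcyclin after its rise in growing cells, showed the largest difference among the members with more than 100 counts in each library. It had 299, 270 and 301 TPM in WT and 1022, 1039 and 1067 TPM in CBS KO. The lowest CBS KO library stood far above the highest WT library. In CPM it went from 22.2 ± 1.49 to 119 ± 19.98 (SD, n = 3), a 5.37-fold difference (log2 fold change 2.43, SE 0.11). The log2 fold change was 1.84 on log2(TPM + 1), and the gene moved from rank 452 to rank 130 of all listed genes by mean TPM.

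S100A4, which binds non-muscle myosin and is widely used as a marker of motile and mesenchymal cells, was far scarcer. It had 70, 62 and 95 counts in WT and 65, 69 and 106 in CBS KO. That corresponds to 33.3, 29.5 and 44.1 TPM in WT and 34.5, 34.8 and 43.98 TPM in CBS KO, so the groups overlapped on that scale, and replicate 3 of each group was the highest. In TMM-scaled CPM, S100A4 was 4.15 ± 0.93 in WT and 6.67 ± 1.73 in CBS KO. The log2 fold change was 0.69 (SE 0.19) with TMM, 0.33 with the library total and 0.09 on log2(TPM + 1). S100A4 overlaps S100A5, and with S100A3 the locus LOC101928034, and how the authors counted reads in such overlaps is not given in the sources used here.

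S100A14 and S100A16, neighbours in the cluster, are members of epithelia, S100A14 being known from epithelial tumours and S100A16 from a wide range of tissues. S100A14 had 721, 703 and 712 TPM in WT and 1588, 1613 and 1691 TPM in CBS KO. S100A16 had 223, 223 and 229 TPM in WT and 414, 403 and 432 TPM in CBS KO. Neither gene's groups overlapped, and the replicates lay close together. In CPM, S100A14 went from 291 ± 3.76 to 1003 ± 112, which is 3.45-fold (log2 fold change 1.79, SE 0.08). S100A16 went from 109 ± 2.06 to 306 ± 32.2 CPM, which is 2.81-fold (log2 fold change 1.49, SE 0.07). On log2(TPM + 1) the log2 fold changes were 1.19 and 0.88. The ratio of S100A14 to S100A16 TPM was 3.1 to 3.24 in the WT libraries and 3.84 to 4 in the CBS KO libraries, so S100A14 differed the more of these neighbours in every library.

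S100A13, which takes part in the release of FGF1 and IL1A from stressed cells without a signal peptide, depended most on how reads were turned into a level. It had 760, 661 and 725 counts in WT and 999, 957 and 1301 in CBS KO. In CPM this was 39.2 ± 2.76 against 90.6 ± 13.2 (2.31-fold, log2 fold change 1.21, SE 0.09). In TPM it was 299.9, 255 and 284 in WT and 358, 330 and 356 in CBS KO, and the means differed by 1.24-fold. Both scales place all 3 CBS KO libraries above all 3 WT libraries. The length by which the authors' FPKM (fragments per kilobase of transcript per 1000000) divide the reads of S100A13 differed between the groups. That length, taken back from counts and FPKM, was 257, 262 and 258 bases in WT and 299, 316 and 343 bases in CBS KO, a ratio of 1.23. For S100A6, S100A10, S100A11, S100A14 and S100A16 the ratio was 0.99 to 1.01. Of 9409 genes with at least 100 counts in each library, 1.35% had a length at least 1.2 times longer in CBS KO with no overlap between groups and 1.9% had a shorter one by the same measure. S100A13 spans 153618799 to 153634361, overlaps S100A1 on the opposite strand and touches CHTOP, and has 3 listed starts. Whether the shift comes from its own transcripts or from reads of an overlapping gene was not tested.

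S100A2 and S100A3 were close to the limit of detection. S100A2, known from squamous epithelium, had 3, 1 and 3 counts in WT and 8, 4 and 11 in CBS KO, too few to be tested. With library scaling, 7 against 23 counts give a ratio of 5.01 (95% exact binomial interval 2.08 to 13.8, which covers counting error only). S100A3, a cysteine-rich protein of the hair cuticle, had 4, 6 and 7 counts in WT and 18, 23 and 27 in CBS KO, a ratio of 6.10 (interval 3.55 to 11.1). Its WT libraries lay under the level that the filter asks for, so S100A3 was tested only through its CBS KO libraries and had to differ. The fitted log2 fold change of S100A3 was 2.58 (SE 0.33). The groups did not overlap for either gene, but at 0.22 to 1.6 TPM in WT and 0.75 to 5.68 TPM in CBS KO both are traces beside the other members.

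With TMM scaling, 8 of the 9 genes could be tested and 8 were called higher, where 38.4% of all genes tested were; since the genes were chosen with this comparison known, nothing is read from that count. The 8 did not overlap between groups in CPM, in the higher direction, which 39.0% of all genes tested also showed (40.1% in the lower). The count of members called higher was 6 of 8 with the library total, 7 of 9 on log2(FPKM + 1) and 6 of 9 on log2(TPM + 1). S100A2 could be tested as well on FPKM and TPM, but only through its CBS KO libraries. Its WT means of 0.243 FPKM and 0.397 TPM lay under the mean of 0.5 that the filter asks for there. Its call in these counts is therefore no result of its own. Of all genes, 2966 of 13028, 2823 of 12409 and 1969 of 12786 were called higher on these scales. S100A4 was not called on any of these 3 scales, S100A11 was not called with the library total or FPKM and was called lower with TPM, and S100A10 was not called with TPM. S100A6, S100A13, S100A14 and S100A16 were higher on every scale tried. S100A3 was too, but edgeR tested it only through its CBS KO libraries, where it had to differ. It is among the 8 called and the 8 without overlap above. The median log2 fold change of the 8 tested members, S100A3 included, was 1.35 with TMM against -0.01 for all genes.

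**Figure D1:**
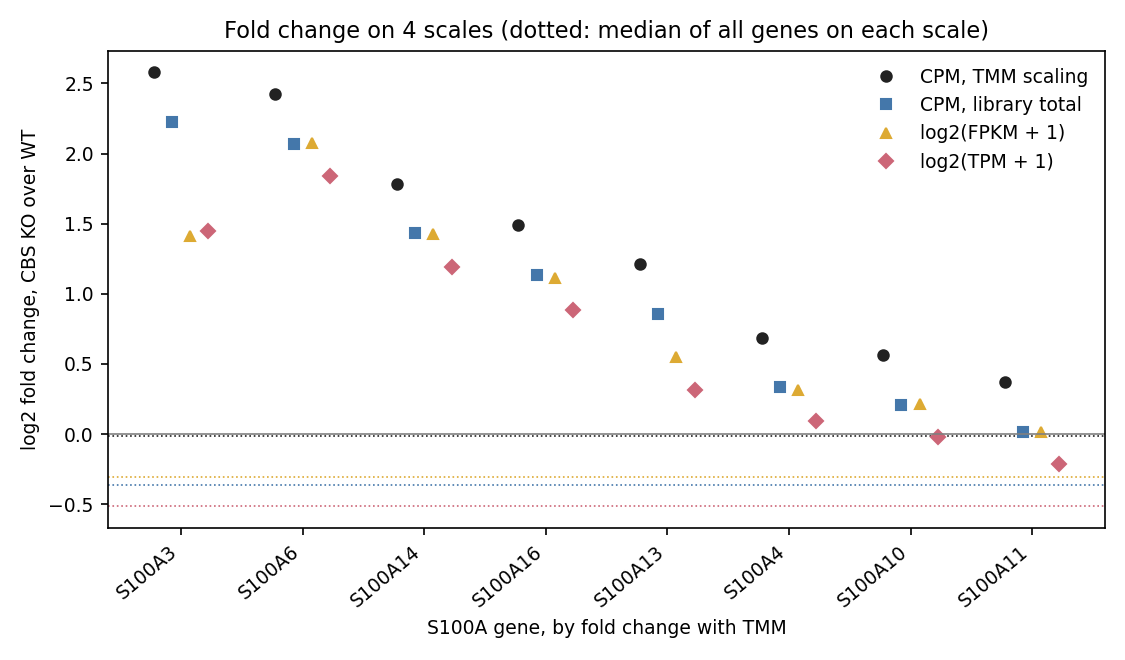
Log2 fold change of CBS KO over WT for the 8 tested S100A genes on 4 scales (symbols), with the median of all genes on each scale as a dotted line. S100A6 goes from 2.43 with TMM to 1.84 with TPM, while S100A10 and S100A11 cross 0, to -0.02 and -0.22 with TPM, and all symbols stay above their own dotted line.

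In order of level, measured as TPM and so per length, WT ran S100A10, S100A14, S100A11, S100A6, S100A13, S100A16, S100A4, S100A3 and S100A2. Of these neighbours S100A6 and S100A13 overlapped over the 3 libraries and the others did not. In CBS KO the order was S100A10, S100A14, S100A6, S100A16, S100A13, S100A11, S100A4, S100A3 and S100A2, and no neighbours overlapped. S100A11 stood at rank 3 in WT and rank 6 in CBS KO, and S100A6 at ranks 4 and 3. The lengths behind these values were short: 141 bases for S100A6 and 263 for S100A11 in WT, where the median annotated coding transcript has 669 and 594 bases. With annotated lengths in place of these, an alternative chosen after seeing the data, S100A6 stood at rank 6 in WT and rank 4 in CBS KO and S100A16 at rank 3 in both, and 3 ranks changed in WT and 2 in CBS KO. S100A10 led and S100A14 came next with either length.

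The 9 transcripts together made up 0.53 to 0.552% of all TPM in WT and 0.72 to 0.732% in CBS KO. S100A10 gave 64.8 to 65.4% of that sum in WT and 45.9 to 49.1% in CBS KO. S100A14 gave 13.1 to 13.3% and then 21.9 to 23.5%, and S100A6 gave 5.1 to 5.53% and then 14.1 to 14.8%. S100A11 had 6.03 to 6.82% in WT and 4.05 to 4.15% in CBS KO, and S100A13 kept a like share, 4.82 to 5.44% and 4.51 to 4.94%. These shares do not depend on how libraries are scaled to each other, but they do depend on the lengths. With annotated lengths, again chosen after seeing the data, S100A6 gave 2.32 to 2.56% in WT and 5.79 to 6.69% in CBS KO, S100A14 20 to 20.3% and 32.5 to 33.6%, and S100A10 57.5 to 58.0% and 38.6 to 41.8%. The larger TPM sum in CBS KO lay mostly in S100A14, S100A6 and S100A16, at about the same S100A10 TPM.

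**Figure D2:**
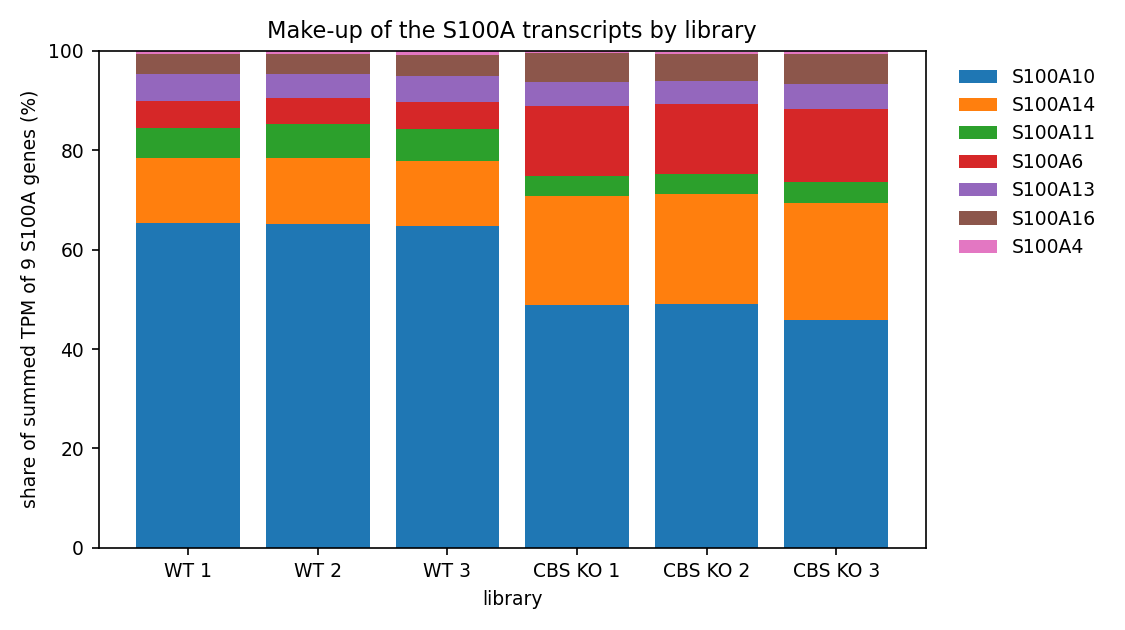
Share of each S100A gene in the summed TPM of the 9 genes, as stacked bars for each of the 6 libraries; S100A2 and S100A3 are too small to be drawn. The 3 CBS KO bars have a smaller S100A10 part (45.9 to 49.1%) than the 3 WT bars (64.8 to 65.4%) and larger S100A14 and S100A6 parts.

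Among S100 genes outside the chosen set, S100P, S100A1 and S100A9 were higher in CBS KO and S100G was lower. Of 12 searched for, 6 are in the table and 4 had enough counts: 3 were called higher and 1 lower, where 77.2% of all genes tested were called in either direction. S100P, a member common in tumours of the digestive tract that binds ezrin, had 69, 67 and 57 counts in WT and 217, 244 and 341 in CBS KO. In CPM it rose 6.32-fold between means of 3.53 ± 0.36 and 22.3 ± 5.02 (log2 fold change 2.66, SE 0.16, edgeR adjusted p = 6.74e-10). S100A9, which with S100A8 forms calprotectin, the stool marker of gut inflammation, had 0, 2 and 6 counts in WT and 46, 26 and 45 in CBS KO, a ratio of 22.3 (95% exact binomial interval 11 to 52.9, counting error only). S100A9 was tested only through its CBS KO libraries and had to differ, and its fitted log2 fold change reached 5.68 without WT replicate 3. The count of 0 in WT replicate 1 allows up to 0.165 CPM. Even in CBS KO S100A9 stood at 14.7 ± 4.31 TPM, against 3483 TPM for S100A10. S100A1, a calcium sensor best known from heart muscle, rose from a mean CPM of 1.37 ± 0.20 to 3.04 ± 0.32 (log2 fold change 1.14, SE 0.21, edgeR adjusted p = 1.14e-04), but lies inside S100A13 on the opposite strand, and the use of strand in the counting is not given in the sources used here.

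S100G, the vitamin D-dependent calbindin that carries calcium through absorptive enterocytes, went the other way. It had 91, 77 and 99 counts in WT and 12, 12 and 23 in CBS KO. That is a 3.71-fold fall in CPM between means of 4.88 ± 0.60 and 1.30 ± 0.49 (log2 fold change -1.89, SE 0.23, edgeR adjusted p = 1.03e-06), and -2.37 on log2(TPM + 1). S100Z had 4 counts in WT and 24 in CBS KO, and S100A7A 1 and 0, too few for a test. S100A5, S100A7, S100A7L2, S100A8, S100A12 and S100B were searched for and have no row in the deposited expression table. Of the fused-type S100 genes, long proteins of the epidermis that begin with an S100 domain, TCHH was tested and not called (log2 fold change 0.44, SE 0.20, edgeR adjusted p = 0.0582).

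Genes of proteins that bind S100 proteins moved in both directions. The list was drawn up with earlier results of these data known. Of 31 genes 25 were tested, 10 called higher, 8 called lower and 7 not called, a share of 40% higher beside 38.4% of all genes. Their median log2 fold change was -0.06 beside -0.01 for all genes. Scaling by library total left 5 of 25 higher, and limma 6 of 24 on log2(FPKM + 1) and 4 of 24 on log2(TPM + 1). Over all genes these settings called 2966 of 13028, 2823 of 12409 and 1969 of 12786 higher.

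Among the annexins, ANXA1, the partner of S100A11, rose 8.68-fold, its mean CPM being 2.81 ± 0.22 in WT and 24.5 ± 0.68 in CBS KO (log2 fold change 3.12, SE 0.11, edgeR adjusted p = 3.13e-13). ANXA2, the partner of S100A10, rose 1.87-fold, its mean CPM being 599 ± 6.84 in WT and 1121 ± 91.98 in CBS KO (log2 fold change 0.90, SE 0.07, edgeR adjusted p = 3.63e-09). The TPM ratio of S100A10 to ANXA2 was 3.9 to 4.16 in WT and 2.88 to 3.29 in CBS KO. That of S100A11 to ANXA1 was 71.3 to 76.6 in WT and 10.4 to 11.7 in CBS KO. In both pairs the annexin therefore gained on its S100 partner in TPM in every CBS KO library. The size of these ratios rests on the lengths behind S100A10 and S100A11. In WT these were 371 and 263 bases, where the median annotated coding transcripts have 909 and 594. ANXA6 did not pass (log2 fold change -0.16, SE 0.07, edgeR adjusted p = 0.0523) but was called lower without WT replicate 3 (adjusted p = 0.047), without CBS KO replicate 3 (adjusted p = 0.00122) and with no filter (adjusted p = 0.0153). ANXA6 was also called lower with the library total (log2 fold change -0.51, edgeR adjusted p = 6.77e-06) and by limma on FPKM (-0.50) and on log2(TPM + 1) (-0.73). On these scales the median over all genes was itself -0.365, -0.307 and -0.515. AHNAK, the giant scaffold that the S100A10 tetramer holds at the membrane, was called lower (log2 fold change -0.19, SE 0.07, edgeR adjusted p = 0.0227), but not without WT replicate 1 (adjusted p = 0.0763), WT replicate 2 (adjusted p = 0.0503) or CBS KO replicate 2 (adjusted p = 0.073).

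CACYBP, named as the calcyclin-binding protein, was called 1.33-fold higher (log2 fold change 0.41, SE 0.07, edgeR adjusted p = 5.23e-05), but the call was lost with the library total (log2 fold change 0.06, adjusted p = 0.487) and the direction turned to -0.00096 on log2(TPM + 1). The TPM ratio of S100A6 to CACYBP was 3.81 to 4.94 in WT and 14.3 to 16.7 in CBS KO. Its size rests on the length behind S100A6, 141 bases in WT, where the median annotated coding transcript has 669. MYH9, the heavy chain of the non-muscle myosin that S100A4 binds, fell 1.63-fold (log2 fold change -0.70, SE 0.06, edgeR adjusted p = 1.10e-08), while S100A4 had the values given above. IL1A, which leaves cells with S100A13, had a log2 fold change of 3.20 (SE 0.32) at mean CPM of 0.33 and 3.08, and like S100A9 was tested only through CBS KO. DLC1, whose protein competes for S100A10, rose 1.82-fold with TMM but was not called on log2(TPM + 1) (log2 fold change 0.23, limma adjusted p = 0.082). AGER, the receptor for extracellular S100 proteins, fell 2.28-fold from 2.87 ± 0.33 to 1.23 ± 0.79 CPM, the phosphatase PPP5C fell 1.81-fold, and the ubiquitin ligase STUB1 fell 1.48-fold.

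The genes around the cluster lay on both sides of 0. The table held 35 genes within 500 kb of the span of the 9 genes, with all S100 genes but the fused-type ones left out. Of these, 21 were tested, TCHH among them, with 10 called higher and 8 lower (median log2 fold change 0.16). That is a share of 47.6% higher beside 38.4% of all genes. Scaling by library total left 4 of 21 higher, and limma 4 of 19 on log2(FPKM + 1) and 3 of 22 on log2(TPM + 1). The same settings called 2966 of 13028, 2823 of 12409 and 1969 of 12786 of all genes higher. Several of the higher values, such as TUFT1 at a log2 fold change of 1.26 and GATAD2B at 0.51, lay within the members' range of 0.37 to 2.58. Just past S100A13, CHTOP and SNAPIN had log2 fold changes of -0.92 and -1.05, and beyond them INTS3 -0.87, each called lower by edgeR; CHTOP and INTS3 are named for their position. Further out, TUFT1 rose 2.39-fold, RPS27, a ribosomal protein, 2.13-fold, the CREB coactivator CRTC2 2.03-fold and the zinc transporter SLC39A1 1.43-fold, a direction that SLC39A1 lost with TPM (log2 fold change -0.06). CELF3 fell 3.57-fold and THEM4 1.93-fold, and CREB3L4 had a log2 fold change of -1.07. The epidermal genes between S100A11 and S100A9 that were in the table had too few counts, to be tested, apart from TCHH.

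The genes whose values over the 6 libraries came closest to a member were found by the root mean square difference in log2 CPM, centred on the WT mean. For S100A10 these were STT3A, a subunit of the oligosaccharyltransferase, at 0.017 and TBPL1 at 0.0281. For S100A14 they were SYT8 at 0.0369 and BNIP1 at 0.0563, and for S100A6 the WNT inhibitor DKK4 at 0.0715 and GUCA2A, the gut hormone guanylin, at 0.09. S100A3, the member with the largest fitted fold change, was closest to RRAS at 0.128 and KCNA7 at 0.13, a looser match. With 2 groups of 3 libraries, such closeness mostly restates a like fold change. A small count was added before taking log2 CPM here, which shrinks the differences of genes with few reads. DKK4 and KCNA7 were such genes, with mean CPM of 0.44 and 0.42 in WT.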

How the data were processed

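The members, gene lists and tests were chosen with earlier results of these data known. The submitters' processing notes name HISAT2 2.2.1, StringTie 2.1.6, cutadapt 1.9, edgeR and DESeq2, and GRCh38 as build, but not what each was used for. The authors deposited estimated counts per gene (7.12 to 7.43% of a library's values are not whole), FPKM, and TPM, which sum to about 1000000 per library, per the file headers and values. How reads were assigned to genes, by strand or between copies, is not stated in labels or headers. Libraries were prepared from poly(A) RNA with a dUTP-marked second strand, per the labels' protocols.

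Counts were rounded, filtered with filterByExpr (13028 genes left, 8 of the 9 members), scaled by TMM and compared by edgeR's quasi-likelihood test (edgeR 4.0.16, limma 3.58.1, R 4.3.3) with Benjamini-Hochberg adjustment over all genes tested; the code was tested on simulated data. Standard errors come from the estimate and its F statistic. Alternatives were other scalings and filters, DESeq2 1.42.0, limma on log2(FPKM + 1), log2(TPM + 1) and log2(TPM + 0.1), a replicate block and leaving out each library. No pair of libraries within a group held identical values, and these replicate pairs differed by more than sampling noise (chi-square per degree of freedom 1.98 to 13.5). Lengths behind FPKM were computed from counts, FPKM and library totals. Positions, starts and sequences are from RefSeq (GRCh38.p14, 16732 of 16781 Entrez IDs found), exons and transcript lengths from GENCODE 29. Named genes are the members, every other S100 gene tested, the 4 called genes that changed most in each direction in the partner, EF-hand and neighbour lists, a fixed set of partners (the annexins ANXA1, ANXA2 and ANXA6, AHNAK, CACYBP and MYH9), CALM2 and CALM3, CBS, and the 2 nearest patterns of 4 members. Other names, such as further list members, were picked with values in view. A few items that the rule names are not reported here.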

Additional observations from a re-analysis of the deposited data

How the results depend on the processing

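Leaving out 1 library at a time gave log2 fold changes of 2.28 to 2.53 for S100A6, 1.68 to 1.85 for S100A14 and 0.44 to 0.88 for S100A4. The replicate numbers are not shown to pair the libraries (correlations of same-numbered deviations 0.041, 0.017 and 0.022), and with the replicate as a block 8 members and 10044 genes were called, against 10060 without it. With median-ratio factors, DESeq2 or no filter, 8, 8 and 9 members were called higher. Where a mean CPM of 5 was required, 1 other S100 gene was left to call, as fewer were tested. Counts of genes called higher were lower with the library total, and with limma on FPKM or TPM, which also changes the test, the filter and the constant added: for partners from 10 to 5 (library total), 6 (FPKM), 4 (TPM + 1) and 4 (TPM + 0.1), in the same order for other EF-hand genes from 21 to 13, 12, 7 and 7, and for genes near the cluster from 10 to 4, 4, 3 and 3. The count over all genes went in that order from 4998 to 2966, 2823, 1969 and 1956. Among the 50 named genes, 13 of 737 alternative values changed sign, all with the library total or with limma on TPM. On log2(TPM + 1) and log2(TPM + 0.1) these were S100A10 (-0.0202 and -0.0202), S100A11 (-0.22 and -0.22), SLC39A1 (-0.0603 and -0.0606), CACYBP (-0.00096 and -0.00091), CALM2 (-0.23 and -0.23) and STT3A (-0.0268 and -0.0269). With the library total CALM2 (-0.0026) turned. With annotated lengths, the number of neighbours in level order that overlapped was 1, as with TPM, but 3 ranks in WT and 2 in CBS KO changed. Depth limits S100A2, S100A3, S100A9 and S100Z, which had 4 to 17 counts over the WT libraries.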

Other observations

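Other EF-hand proteins, outside the S100 family, were divided. Of 49 genes listed 43 were tested, 21 called higher and 13 lower with TMM (edgeR, adjusted p under 0.05), a share of 48.8% higher beside 38.4% of all genes, with a median log2 fold change of 0.17 beside -0.01 for all genes. SPARC, a matrix glycoprotein, rose 3.67-fold from 1.81 to 6.65 CPM, CALU, a calcium-binding protein of the secretory pathway, 2.40-fold, and the regulatory light chains of non-muscle myosin MYL12A and MYL12B 2.72-fold and 2.395-fold. SCGN, secretagogin of endocrine cells, fell 8.46-fold from 40.9 to 4.83 CPM, LETM1, a mitochondrial inner membrane protein, 3.09-fold, RCN3 2.95-fold and the protease subunit CAPN1 1.95-fold.

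CALM2 was called higher (log2 fold change 0.35, SE 0.06), a direction that turned with the library total and with TPM and a call that was lost on FPKM, and CALM3 was called lower (log2 fold change -0.26, SE 0.07, edgeR adjusted p = 0.00176).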
